A study of Arabidopsis thaliana with 6 samples.

Results

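The WRKY family of transcription factors was examined in RNA-seq data from shoot apices of WT, *val1* and *val2* plants. Its members were taken by gene identifier from a list of 59 genes, and all 59 were found among the 24292 genes of the count table. Statements on the family below refer to these listed genes. The data were 6 libraries, 2 biological replicates of each genotype. WT was Col-0, and *val1* (*val1-2*) and *val2* (*val2-1*) were insertion lines in that background, each represented by 1 allele. Each library held RNA from 0.5 g of dissected shoot apices of 6-wk-old plants grown at 22 °C in short days (SD, with 8 h of light and 16 h of darkness), and the labels name no treatment. Such tissue is a mixture of cells, so that fewer cells of a type and less RNA per cell cannot be told apart in any of the values that follow.

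WRKY proteins are plant transcription factors named after a conserved peptide in their DNA-binding domain, which begins with the residues W, R, K and Y and is followed by a zinc finger. They bind the W box, a DNA element with a TTGAC core, which also lies in the promoters of many *WRKY* genes, so that members regulate themselves and each other. The family is known for responses to pathogens, wounding, salicylic acid (SA) and jasmonate, and for leaf senescence, and some members act in trichomes, seeds or the floral transition. VAL1 and VAL2 are B3-domain proteins that bind RY elements (core CATGCA) and recruit repressive chromatin complexes.

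The coding sequence of the conserved peptide is shown for members on which the results turn, read from the RefSeq annotation of TAIR10.1 and written 5′ to 3′ on the coding strand, with the sixth codon in capitals because it is the position at which a called member differs from most of the family.
*WRKY18*, chr4:15384316-15384336, plus strand: tggaggaaatacggaCAAaag
*WRKY40*, chr1:30384789-30384809, plus strand: tggaggaaatatggaCAGaaa
*WRKY54*, chr2:17001378-17001398, minus strand: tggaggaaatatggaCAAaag
*WRKY38*, chr5:7496202-7496222, minus strand: tggaggaaatatggtCAAaag
*WRKY62*, chr5:351565-351585, minus strand: tggaggaaatacggaCAAaag
*WRKY51*, chr5:25908864-25908884, plus strand: tggaggaagtatggcAAGaaa
*WRKY50*, chr5:9147579-9147599, minus strand: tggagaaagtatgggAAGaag
The sixth codon was CAA or CAG, both of which encode glutamine, at 67 of the 69 motif sites in the 59 listed genes. Among these genes it was AAG, a lysine codon, in *WRKY51* and *WRKY50* only, and genes outside the list were not examined. The number of motifs also checks the subgroups in which the family is usually divided. In subgroup I, whose members carry a pair of WRKY domains, 10 of 11 genes held 2 motifs and *WRKY19* held 1, and each of the other 48 members held 1.

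Promoters of 4 members are shown because they hold 2 or 3 W boxes and belong to genes whose expression differed between genotypes. Each is the 300 bases before the annotated start of the gene in TAIR10.1, on the strand of the gene. Capitals mark TTGACC or TTGACT, or their reverse complements, GGTCAA and AGTCAA.
*WRKY33*, chr2:16107935-16108234, plus strand: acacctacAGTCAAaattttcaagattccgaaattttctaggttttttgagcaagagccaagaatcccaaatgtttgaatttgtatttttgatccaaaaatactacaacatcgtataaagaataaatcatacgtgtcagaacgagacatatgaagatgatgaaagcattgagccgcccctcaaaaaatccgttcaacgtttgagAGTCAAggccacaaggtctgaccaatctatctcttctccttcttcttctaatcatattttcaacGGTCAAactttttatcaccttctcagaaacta
*WRKY53*, chr4:12393983-12394282, minus strand: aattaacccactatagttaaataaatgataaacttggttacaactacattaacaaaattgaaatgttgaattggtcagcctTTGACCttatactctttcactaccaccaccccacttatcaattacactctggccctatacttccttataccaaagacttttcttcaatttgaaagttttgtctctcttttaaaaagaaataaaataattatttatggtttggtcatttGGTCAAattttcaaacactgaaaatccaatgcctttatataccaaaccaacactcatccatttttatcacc
*WRKY15*, chr2:9924586-9924885, plus strand: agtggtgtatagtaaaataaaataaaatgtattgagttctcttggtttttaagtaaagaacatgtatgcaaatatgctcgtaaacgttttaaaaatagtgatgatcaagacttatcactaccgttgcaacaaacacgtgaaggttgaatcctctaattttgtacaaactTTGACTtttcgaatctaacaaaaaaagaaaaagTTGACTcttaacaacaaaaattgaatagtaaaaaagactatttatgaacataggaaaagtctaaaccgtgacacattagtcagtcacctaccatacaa
*WRKY62*, chr5:352096-352395, minus strand: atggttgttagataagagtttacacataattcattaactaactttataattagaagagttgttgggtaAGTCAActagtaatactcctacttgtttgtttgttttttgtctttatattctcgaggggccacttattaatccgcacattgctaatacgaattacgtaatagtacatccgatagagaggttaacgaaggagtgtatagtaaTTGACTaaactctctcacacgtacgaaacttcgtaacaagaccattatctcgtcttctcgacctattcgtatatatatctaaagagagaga
The W boxes of *WRKY33* lay 32, 96 and 292 bases upstream of the gene, counted to their first base. At least 1 W box of these 6 letters on either strand was found in the 300 bases of 26 of the 59 members (44.1%), and in 32.3% of the 27438 promoters of the same length in the annotation. At least 2 were found in 10 members (16.9%) and in 7.91% of all promoters. The RY core CATGCA was found in 4 members (6.78%), *WRKY18* among them, and in 10.3% of all promoters. The 5-letter core TTGAC alone, which the longer motif contains, was found on either strand in 38 members (64.4%) and in 50.4% of all promoters. No W box of 6 letters was found in these windows of *WRKY18*, *WRKY40*, *WRKY54*, *WRKY38* or *WRKY51*, and of these *WRKY40*, *WRKY38* and *WRKY51* held the core.

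The 6 libraries had between 22635808 and 33474422 counts. Counts were analysed with edgeR in 1 fit of the 3 genotypes, expression is given as CPM (counts scaled to a common library size after TMM), and every adjusted p is that of the quasi-likelihood test of edgeR, adjusted by Benjamini and Hochberg over the 21140 genes tested. A gene was called upregulated or downregulated when its adjusted p was below 0.05 and its log2 fold change (log2FC, given with its standard error, SE) was at least 1 in size. The p-values measure the spread between these samples only. *VAL1* was at 40.3 and 55.4 CPM in WT against 12.5 and 15.7 CPM in *val1*. *VAL2* was at 39.9 and 40.9 CPM in WT, whereas both samples of *val2* were higher, at 149.8 and 163.9 CPM (log2FC 1.96, SE 0.08). *VAL2* was thus higher, not lower, in the samples of this genotype, which are called the libraries labelled *val2* throughout. The tissue was checked with apex markers: *STM* lay between 58.0 and 70.7 CPM and *KNAT1* between 45.5 and 56.5 CPM over the 6 libraries, *CLV3* and *UFO* were below 0.3 CPM in each, and *WUS* was not analysed here. The summed level of 3 leaf mesophyll markers was between 10065 and 14376 CPM.

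WRKY genes spanned a wide range of expression in WT apices. Mean expression in WT was at least 100 CPM for 9 members, from 10 to under 100 CPM for 25, from 1 to under 10 CPM for 19 and under 1 CPM for 6. Levels of different genes were compared on the deposited TPM values, which are scaled by transcript length and cover 46 members. *WRKY18* had the highest mean TPM of the family in WT (1247), followed by *WRKY40* (1086), *WRKY33* (517), *WRKY46* (392) and *WRKY15* (342). Few genes of any kind were as abundant as the first of these, since 41 of the 16383 genes in the TPM table, itself included, were at or above the level of *WRKY18* in WT. In *val1*, 460 genes were. *WRKY40* ranked first among members in *val1* with a mean of 573 TPM, and *WRKY70* second with 369 TPM.

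The summed expression of the 59 members was lower in *val1*. It was 4914 and 5033 CPM in WT, 2523 and 2409 CPM in *val1*, and 4796 and 4855 CPM in the libraries labelled *val2*. The mean of the *val1* libraries was 2.02-fold lower than that of WT, and the *val1* libraries did not overlap with either of the other genotypes. The libraries labelled *val2* also lay below both WT libraries, with a mean 1.03-fold lower. The size of these differences rests on the TMM factors (0.945 and 0.925 in WT, 1.09 and 1.08 in *val1*) and was not computed without them. An exact permutation test with 2 libraries in a group cannot go below p = 0.333 (two-sided), which is the value it gave for both differences from WT. *WRKY18* contributed 22.9% and 24.4% of the summed CPM in WT and 8.88% and 9.52% in *val1*. *WRKY18*, *WRKY40* and *WRKY33* together contributed 56.1% and 55.9% in WT, 38.7% and 37.8% in *val1*, and 50.9% and 53.3% in the libraries labelled *val2*. These 3 genes accounted for 73.4% of the difference in summed CPM between the means of WT and *val1*.

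**Figure D1:**
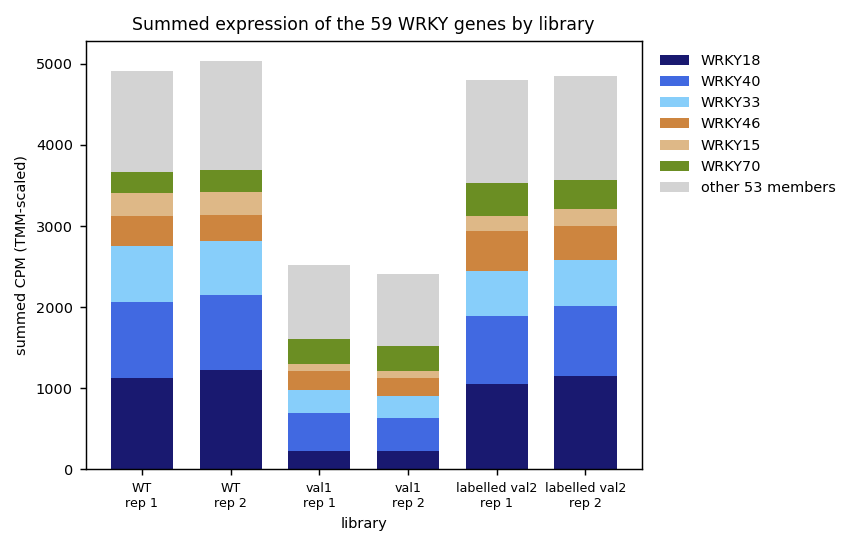
Stacked bars give the summed CPM of the 59 members in each of the 6 libraries, with 6 abundant members in colour and the rest in grey. The 2 *val1* bars end at 2523 and 2409 CPM and the other 4 between 4796 and 5033 CPM, and the lowest segment, *WRKY18*, is the one that shrinks most.

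The filter on low counts was passed by 57 of the 59 members. The other 2 were *WRKY43*, with 0 and 0 counts in WT, 5 and 4 in *val1* and 3 and 0 in the libraries labelled *val2*, and *WRKY61*, with at most 14 counts in any library. In *val1* against WT, 16 of the 57 tested members were downregulated and 1 was upregulated. Over all tested genes 9.81% were downregulated and 5.89% were upregulated. The downregulated members were *WRKY6*, *WRKY15*, *WRKY18*, *WRKY22*, *WRKY25*, *WRKY26*, *WRKY28*, *WRKY33*, *WRKY40*, *WRKY41*, *WRKY48*, *WRKY53*, *WRKY55*, *WRKY62*, *WRKY69* and *WRKY72*, and the upregulated member was *WRKY54*. The tested members had a median log2FC of -0.36, against 0.038 for all genes. With an adjusted p below 0.05 and no requirement on fold change, 24 members were lower (22.1% of all genes) and 7 were higher (23.6% of all genes), which leaves 26 that did not pass. Both *val1* libraries lay below both WT libraries for 27 tested members (34.3% of all genes) and above them for 15 (40.0% of all genes). The count of upregulated members rose to 3 without WT replicate 1, 2 without WT replicate 2, 4 without *val1* replicate 1 and 3 without *val1* replicate 2. It did so through *WRKY3*, *WRKY13*, *WRKY27*, *WRKY35*, *WRKY51* and *WRKY60*, whose log2FC values in the full data lay between 0.71 and 0.96.

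**Figure D2:**
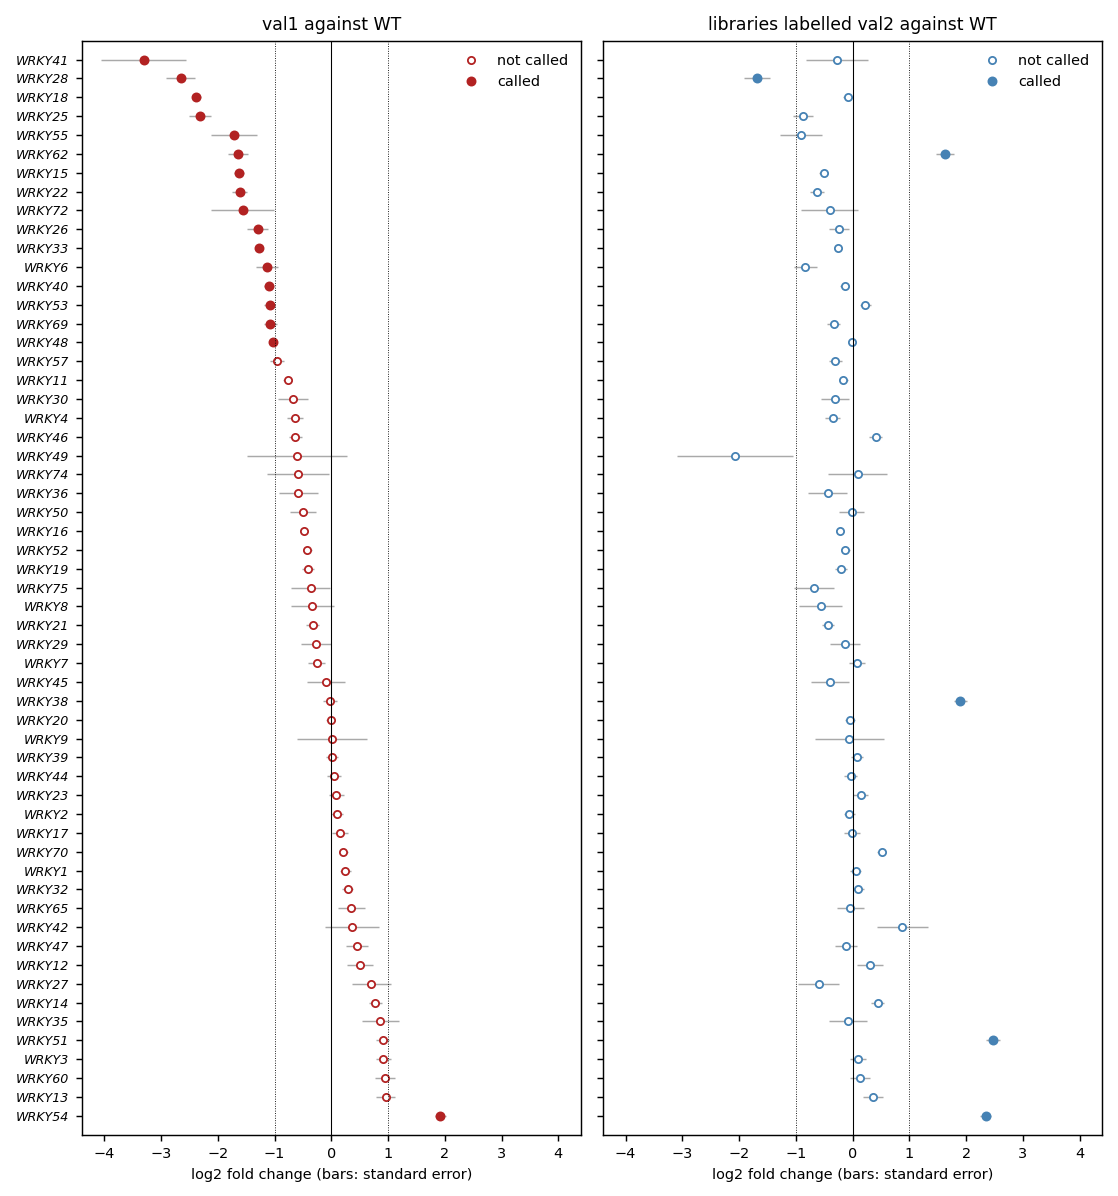
Points give the log2FC of the 57 tested members against WT, for *val1* (left) and for the libraries labelled *val2* (right), with standard errors, sorted by the value in *val1*; filled points were called and dotted lines mark a log2FC of -1 and 1. In *val1* 16 filled points lie at the negative end and 1 at the positive end, and in the libraries labelled *val2* 4 are positive and 1 negative.

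The first set of downregulated genes comprised *WRKY18* and *WRKY40*, which with *WRKY60* form subgroup IIa. Their proteins associate through leucine zippers and act in part redundantly as repressors of basal defence. *WRKY18* (AT4G31800, chr4:15382777-15385100) had 1126 and 1226 CPM in WT, 224.1 and 229.4 in *val1*, and 1052 and 1158 in the libraries labelled *val2*. It was 5.19-fold lower in *val1* (log2FC -2.37, SE 0.08, adjusted p = 5.9e-07 from edgeR), and the replicates of WT and of the libraries labelled *val2* overlapped. *WRKY40* (AT1G80840, chr1:30383561-30385499) had 934.0 and 928.2 CPM in WT, 467.2 and 403.0 in *val1*, and 835.7 and 852.0 in the libraries labelled *val2*. The change in *val1* was -1.10 on the log2 scale (SE 0.08, adjusted p = 1.0e-05 from edgeR), close to the threshold. *WRKY60* moved the other way at a much lower level, with 3.85 and 3.33 CPM in WT, 6.89 and 6.91 in *val1*, and 3.81 and 4.05 in the libraries labelled *val2*. Against WT it reached a log2FC of 0.94 (adjusted p = 0.0019 from edgeR), so that it was not called. *WRKY18* lies 94279 bases from *VAL2*, on the chromosome that carries the insertion in *val2*, and it had a log2FC of -0.09 in the libraries labelled *val2* (adjusted p = 0.45 from edgeR).

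*WRKY33*, *WRKY25* and *WRKY26* are related members of subgroup I. WRKY33 is a substrate of the kinases MPK3 and MPK6 and is needed for camalexin synthesis and resistance to necrotrophic fungi, and the 3 genes have been tied to thermotolerance. *WRKY33* (AT2G38470, chr2:16108235-16110766) had 698.5 and 657.8 CPM in WT, 286.1 and 278.3 in *val1*, and 555.3 and 577.6 in the libraries labelled *val2*. In *val1* *WRKY33* had a log2FC of -1.26 (SE 0.07, adjusted p = 2.3e-06 from edgeR). *WRKY25* had 40.0 and 52.6 CPM in WT, 7.94 and 10.5 in *val1*, and 21.8 and 28.5 in the libraries labelled *val2*, which placed the latter between the other genotypes. Its log2FC was -2.32 for *val1* (SE 0.19, adjusted p = 1.9e-05 from edgeR) and -0.88 for the libraries labelled *val2* (adjusted p = 0.01 from edgeR). *WRKY25* lies 75090 bases from *VAL1*. *WRKY26* had 12.9 and 12.1 CPM in WT, 6.08 and 4.19 in *val1*, and 9.54 and 11.7 in the libraries labelled *val2* (log2FC in *val1* -1.29). The other 8 members of subgroup I were not called in any comparison, and the median of the subgroup in *val1* was -0.0085.

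*WRKY22* acts below the flagellin receptor together with *WRKY29*, and *WRKY15* has been linked to growth and to salt and oxidative stress. *WRKY15* had 277.7 and 290.9 CPM in WT, 92.9 and 91.6 in *val1*, and 184.2 and 214.2 in the libraries labelled *val2*. *WRKY22* showed the same order of genotypes, with 139.0 and 150.4 CPM in WT, 53.7 and 41.0 in *val1*, and 86.8 and 99.7 in the libraries labelled *val2*. Both were about equally reduced in *val1*, with log2FC values of -1.62 for *WRKY15* and -1.61 for *WRKY22* (adjusted p = 2.3e-06 and 1.6e-05 from edgeR). The values for the libraries labelled *val2* were -0.51 and -0.63 (adjusted p = 0.0054 and 0.0097 from edgeR), under the fold-change threshold. *WRKY29* had between 2.55 and 4.69 CPM over the 6 libraries, with a log2FC of -0.27 in *val1* (adjusted p = 0.45 from edgeR).

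*WRKY28*, whose product binds the promoter of the SA synthesis gene *ICS1*, was the 1 member called downregulated in both comparisons with WT. It had 28.5 and 41.8 CPM in WT, 4.17 and 6.88 in *val1*, and 9.97 and 11.9 in the libraries labelled *val2*. The WT replicates of *WRKY28* differed more than those of the abundant members, and yet none of the other 4 libraries reached them. Its log2FC was -2.66 for *val1* (SE 0.25, adjusted p = 4e-05 from edgeR) and -1.69 for the libraries labelled *val2* (SE 0.23, adjusted p = 0.0023 from edgeR). *WRKY48*, a repressor of basal defence, is another member of subgroup IIc that was called in *val1*. It had 226.7 and 233.3 CPM in WT, 113.1 and 111.4 in *val1*, and 223.6 and 231.2 in the libraries labelled *val2*. In *val1* it had a log2FC of -1.04 (SE 0.07), just beyond the threshold.

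Among the senescence-associated members, *WRKY53* promotes leaf senescence and *WRKY6* acts in senescence and in phosphate transport. *WRKY53* had 82.5 and 85.9 CPM in WT, 43.0 and 36.4 in *val1*, and 101.2 and 95.7 in the libraries labelled *val2* (log2FC in *val1* -1.09, adjusted p = 2.2e-05 from edgeR). *WRKY6* had 11.1 and 14.5 CPM in WT, 5.55 and 6.10 in *val1*, and 5.91 and 8.51 in the libraries labelled *val2*. Its log2FC was -1.13 for *val1* and -0.83 for the libraries labelled *val2* (adjusted p = 0.0017 and 0.02 from edgeR), so that the other 4 libraries were all below WT and only the value in *val1* passed the fold-change threshold. *WRKY69*, in subgroup IIe, had 17.4 and 19.7 CPM in WT, 8.55 and 9.02 in *val1*, and 14.5 and 14.9 in the libraries labelled *val2* (log2FC in *val1* -1.08).

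The remaining downregulated members were scarce, and their fold changes rest on few counts. *WRKY41*, which has been linked to seed dormancy, had 25 and 47 counts in WT, 0 and 7 in *val1*, and 28 and 36 in the libraries labelled *val2* (log2FC in *val1* -3.31, SE 0.75, adjusted p = 0.0063 from edgeR). The size of this fall was not well determined, since it was -2.46 without *val1* replicate 1, -1.19 on log2(TPM + 1), and a fitted -8.18 without *val1* replicate 2, where the remaining *val1* library has 0 counts and the value depends on the prior count. *WRKY55* had 42 and 49 counts in WT, 16 and 11 in *val1*, and 24 and 29 in the libraries labelled *val2* (log2FC in *val1* -1.71, adjusted p = 0.0078 from edgeR). *WRKY72*, a member of subgroup IIb described in basal defence, had 17 and 44 counts in WT, 7 and 13 in *val1*, and 18 and 31 in the libraries labelled *val2* (log2FC in *val1* -1.56, adjusted p = 0.046 from edgeR). The call of *WRKY72* was lost with DESeq2 and when any 1 library other than WT replicate 1 was left out.

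Of the 16 downregulated calls in *val1*, 9 held under each alternative that gave a value: *WRKY15*, *WRKY18*, *WRKY22*, *WRKY25*, *WRKY26*, *WRKY28*, *WRKY33*, *WRKY41* and *WRKY62*. Scaling by library size alone, which shifted the median of all genes from 0.038 to 0.25 on the log2FC scale, took *WRKY6*, *WRKY40*, *WRKY48*, *WRKY53* and *WRKY69* below the fold-change threshold, with each still lower than in WT. *WRKY72* lost its call there through its adjusted p (log2FC -1.34, adjusted p = 0.063 from edgeR), and 10 downregulated and 6 upregulated members were left. *WRKY33*, *WRKY40*, *WRKY41*, *WRKY53* and *WRKY69* overlap an annotated gene on the opposite strand. Whether counting used the strand is not given in the sources used here, so reads of the overlapping pairs may not have been told apart. In *WRKY40*, 4.07% of the 50-base words of the exons occur elsewhere in the genome, and in the other 20 called members none do.

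**Figure D3:**
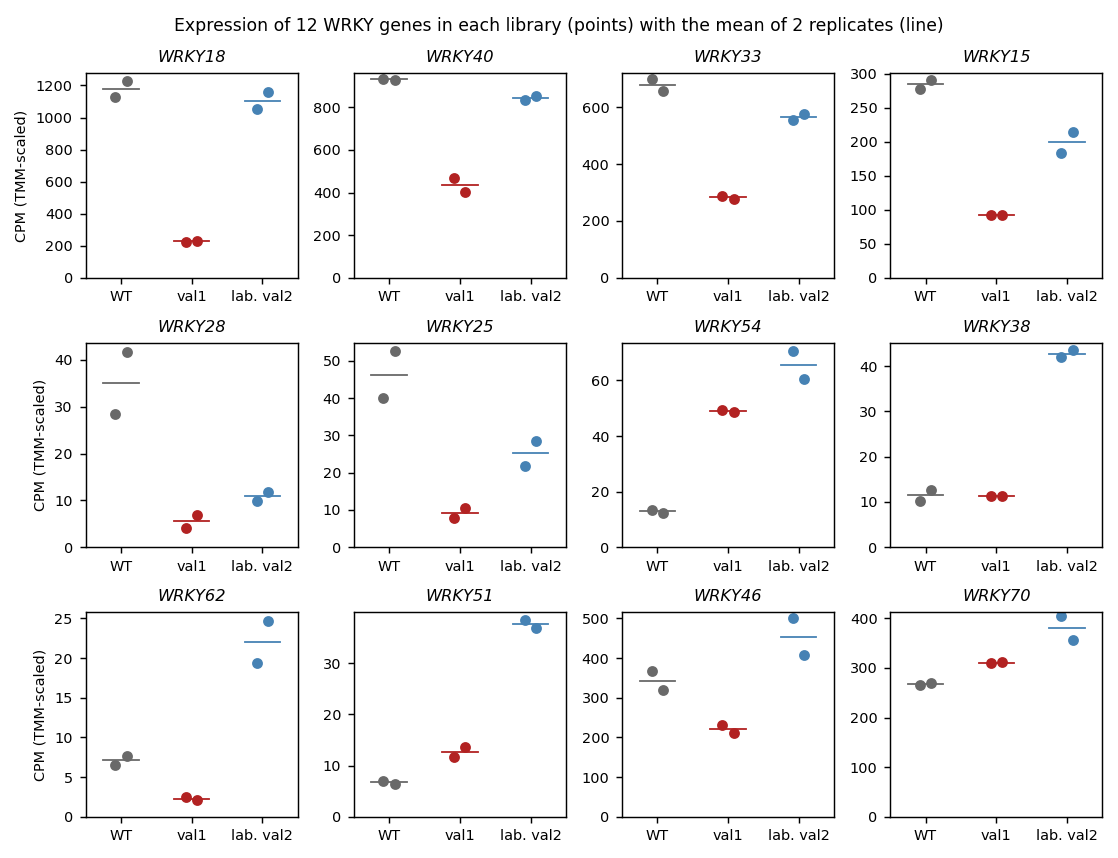
Each panel gives the CPM of 1 of 12 members on a linear axis from 0, with a point for each replicate and a line at the mean of the 2 replicates of WT, *val1* and the libraries labelled *val2* (lab. val2). *WRKY18* falls from over 1100 CPM in WT to under 230 CPM in *val1* alone, *WRKY28* is lower and *WRKY54* higher in the other 4 libraries than in WT, and *WRKY38*, *WRKY62* and *WRKY51* are highest in the libraries labelled *val2*.

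*WRKY54* and *WRKY70* are related members of subgroup III whose proteins restrain leaf senescence and SA accumulation. *WRKY54* (AT2G40750, chr2:17000419-17002528) was the 1 member called upregulated in both comparisons with WT. It had 13.4 and 12.5 CPM in WT, 49.3 and 48.7 in *val1*, and 70.6 and 60.6 in the libraries labelled *val2*, so that the 3 genotypes did not overlap. The log2FC was 1.92 for *val1* (SE 0.10, adjusted p = 1.8e-06 from edgeR) and 2.34 for the libraries labelled *val2* (SE 0.10, adjusted p = 6.1e-06 from edgeR), a 3.79-fold and a 5.08-fold rise. On the TPM scale it moved from rank 21 of the 46 members in WT to rank 10 in *val1* and rank 11 in the libraries labelled *val2*. *WRKY70* was more abundant on the TPM scale, with a mean of 281 TPM in WT against 13.9 TPM for *WRKY54*. It had 265.8 and 269.8 CPM in WT, 310.2 and 310.9 in *val1*, and 405.0 and 356.7 in the libraries labelled *val2*. Its log2FC was 0.21 for *val1* (adjusted p = 0.054 from edgeR) and 0.51 for the libraries labelled *val2* (adjusted p = 0.004 from edgeR). The neighbour of *WRKY54* on chromosome 2 is *WRKY55*, which points toward it with 919 bases between their ends and which was downregulated in *val1*. Adjacent members of the same subgroup therefore differed in opposite directions in *val1*, where *WRKY55* had only 16 and 11 counts. The call of *WRKY55* was lost on log2(TPM + 1) (-0.88) and without *val1* replicate 2 (-1.32), with the direction kept.

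In the libraries labelled *val2* against WT, where *VAL2* itself was higher than in WT, 4 of the 57 tested members were upregulated and 1, *WRKY28*, was downregulated. Over all tested genes 0.918% were upregulated and 2.27% were downregulated. The upregulated members were *WRKY54*, *WRKY38*, *WRKY62* and *WRKY51*, of which all but *WRKY51* belong to subgroup III. The members had a median log2FC of -0.090, against 0.00016 for all genes. With an adjusted p below 0.05 alone, 7 members were higher (8.69% of all genes) and 7 were lower (10.0% of all genes). Both libraries labelled *val2* lay above both WT libraries for 11 tested members (31.1% of all genes) and below them for 23 (30.8% of all genes). These 4 rises held under each alternative that gave a value. The count of downregulated members rose to 3, with *WRKY6* and *WRKY25* added, without WT replicate 1 and also without replicate 2 of the libraries labelled *val2*. Both comparisons with WT share its 2 libraries.

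*WRKY38* and *WRKY62* encode related repressors of basal defence that bind the histone deacetylase HDA19, and both are induced by SA. *WRKY38* had 10.3 and 12.7 CPM in WT, 11.3 and 11.3 in *val1*, and 42.0 and 43.5 in the libraries labelled *val2*. WT and *val1* overlapped for *WRKY38*, and the libraries labelled *val2* stood well above them (log2FC against WT 1.89, SE 0.12, adjusted p = 3.9e-05 from edgeR). *WRKY62* had 6.55 and 7.66 CPM in WT, 2.43 and 2.14 in *val1*, and 19.4 and 24.6 in the libraries labelled *val2*. It was the 1 member called in opposite directions in the comparisons with WT, with a log2FC of -1.64 for *val1* (SE 0.18, adjusted p = 0.00011 from edgeR) and 1.63 for the libraries labelled *val2* (SE 0.15, adjusted p = 0.00045 from edgeR). The direct comparison of *val1* with the libraries labelled *val2* gave it a log2FC of -3.27 (adjusted p = 3.9e-06 from edgeR), a 9.64-fold difference. The promoter of *WRKY62* shown above holds 2 W boxes of 6 letters and that of *WRKY38* holds the core only.

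WRKY51 and WRKY50, the listed proteins whose sixth motif codon is AAG, act together in the SA-dependent repression of jasmonate responses. *WRKY51* had 7.07 and 6.50 CPM in WT, 11.8 and 13.6 in *val1*, and 38.4 and 36.9 in the libraries labelled *val2*. Its log2FC was 2.47 in the libraries labelled *val2* (SE 0.12, adjusted p = 1.0e-05 from edgeR), the largest rise of a member, and 0.91 in *val1* (adjusted p = 0.00029 from edgeR). *WRKY50* did not show this pattern, with between 2.30 and 3.75 CPM over the 6 libraries and log2FC values of -0.50 for *val1* and -0.016 for the libraries labelled *val2* (adjusted p = 0.1 and 0.97 from edgeR).

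In *val1* against the libraries labelled *val2*, which differ from each other in *VAL1* and in the raised level of *VAL2*, 12 members were lower in *val1* and 1 was higher. Over all tested genes 6.94% were lower and 5.17% were higher. The median log2FC was -0.29 for the members and 0.012 for all genes. With an adjusted p below 0.05 alone, 22 members were lower (18.0% of all genes) and 6 were higher (17.7% of all genes). Both *val1* libraries lay below both libraries labelled *val2* for 29 tested members (33.7% of all genes) and above them for 15 (35.4% of all genes). The lower members were *WRKY15*, *WRKY18*, *WRKY25*, *WRKY26*, *WRKY33*, *WRKY38*, *WRKY41*, *WRKY46*, *WRKY48*, *WRKY51*, *WRKY53* and *WRKY62*. This comparison shares the *val1* libraries with the comparison of *val1* with WT. All 10 tested members of subgroup III had a negative log2FC here, from -3.27 to -0.29, and 5 of them were called. *WRKY46*, which acts with *WRKY53* and *WRKY70* in basal resistance, had 366.4 and 320.3 CPM in WT, 231.3 and 212.3 in *val1*, and 500.9 and 407.3 in the libraries labelled *val2*. It was below WT in *val1* and above WT in the libraries labelled *val2* without passing the fold-change threshold in either (log2FC values -0.63 and 0.40), and it was called in this direct comparison (-1.03, adjusted p = 0.00014 from edgeR). The 1 member higher in *val1* was *WRKY27*, described in bacterial wilt, with 35 and 49 counts in WT, 77 and 55 in *val1*, and 36 and 25 in the libraries labelled *val2* (log2FC 1.31, adjusted p = 0.019 from edgeR). The count of lower members was 7 with scaling by library size alone, and 6 of the 12 calls held under each alternative that gave a value. *WRKY46* was not among these 6. Its log2FC was -0.90 under library size alone and -0.88 without replicate 1 of the libraries labelled *val2*. The call of *WRKY27* was lost without *val1* replicate 1 (log2FC 0.85) or without either replicate of the libraries labelled *val2*.

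Called members are given by subgroup, and differences between the subgroups were not tested. In *val1*, the downregulated members were 3 of 11 tested in subgroup I, 2 of 3 in IIa, 2 of 6 in IIb, 2 of 12 in IIc, 1 of 7 in IId, 2 of 8 in IIe and 4 of 10 in III. The downregulated share was 28.1% over all tested members and 9.81% over all genes. The median log2FC in *val1* ranged from 0.040 in IIe to -1.10 in IIa and was -0.65 in III. In the libraries labelled *val2* the median was 0.31 in III, where 3 of 10 were upregulated (0.918% of all genes), and lay between -0.26 and -0.011 in the other 6. The summed expression of subgroup III was 791.1 and 757.7 CPM in WT, 682.4 and 653.4 in *val1*, and 1179 and 1032 in the libraries labelled *val2*, so it alone had a summed level above both WT libraries in both libraries labelled *val2*. For subgroup IIa it was 2063 and 2158 CPM in WT, 698.2 and 639.3 in *val1*, and 1892 and 2014 in the libraries labelled *val2*. A W box was found in the 300-base promoters of 11 of the 16 members downregulated in *val1*, 5 of which held at least 2, and of 15 of the 40 tested members that were not called in *val1*. These counts describe the windows only, and no test of them was made.

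**Figure D4:**
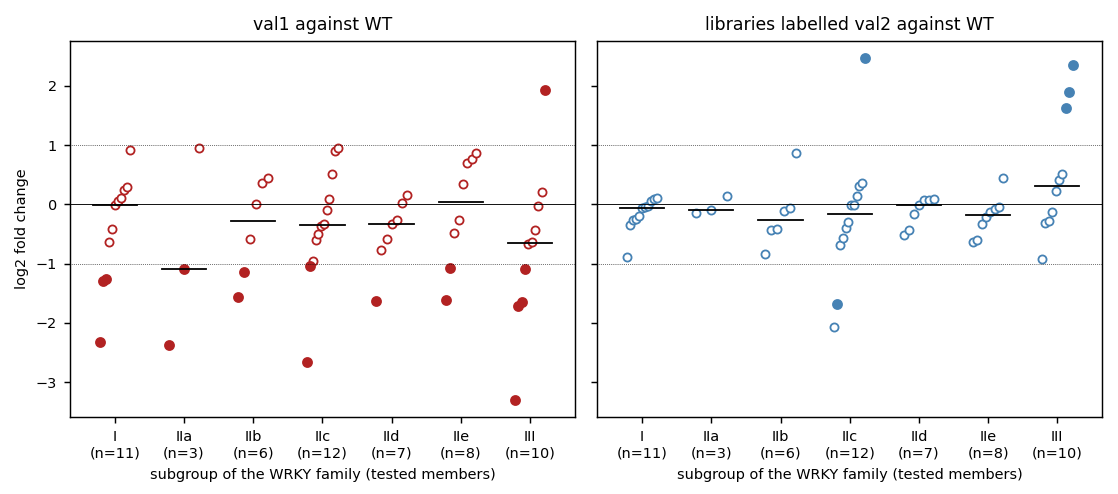
Points give the log2FC against WT of each tested member by subgroup of the family, in *val1* (left) and the libraries labelled *val2* (right), with filled points for called members, black lines for the median of a subgroup and dotted lines at -1 and 1. The called members of *val1* are spread over all 7 subgroups, and 3 of the 4 upregulated members of the libraries labelled *val2* lie in subgroup III.

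The members described in flowering or development were mostly not called. WRKY12 and WRKY13 have opposite effects on flowering under SD, the former promoting it and the latter delaying it. *WRKY12* had 6.91 and 5.11 CPM in WT, 8.23 and 8.83 in *val1*, and 8.95 and 5.79 in the libraries labelled *val2* (log2FC in *val1* 0.51, adjusted p = 0.095 from edgeR). *WRKY13* had 6.04 and 5.07 CPM in WT, 10.1 and 11.4 in *val1*, and 8.06 and 6.09 in the libraries labelled *val2*. Both *val1* libraries were above the other 4 for *WRKY13*, with a log2FC of 0.96 (adjusted p = 0.002 from edgeR) that fell just short of the threshold and passed it under scaling by library size alone (1.17). *WRKY75*, which promotes flowering and whose product binds DELLA proteins, had 1.55 and 2.29 CPM in WT, 1.34 and 1.65 in *val1*, and 0.923 and 1.5 in the libraries labelled *val2*, with log2FC values of -0.36 for *val1* and -0.68 for the libraries labelled *val2* (adjusted p = 0.43 and 0.22 from edgeR). *WRKY44*, known as *TTG2* and needed for trichomes and seed coats, had 14.5 and 14.8 CPM in WT, 14.1 and 16.3 in *val1*, and 15.1 and 13.4 in the libraries labelled *val2* (log2FC values 0.054 and -0.036, adjusted p = 0.74 and 0.87 from edgeR).

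Of the 5 listed genes tied to these members in flowering, 4 were analysed here, and *GAI*, which encodes a DELLA repressor of gibberellin responses, was upregulated in *val1* (9.81 and 15.6 CPM in WT, 36.7 and 41.5 in *val1*, log2FC 1.61, adjusted p = 0.00014 from edgeR). *FUL*, a floral MADS-box gene (-0.96, adjusted p = 0.044 from edgeR), and *RGL1*, another DELLA gene (-0.29, adjusted p = 0.031 from edgeR), were lower in *val1* without reaching the fold-change threshold. *GAI* had 14.2 and 13.1 CPM in the libraries labelled *val2*. With edgeR and with DESeq2 none of the 4 was called there, and 2 were lower at an unadjusted p below 0.05, among them the DELLA gene *RGA* (-0.87, adjusted p = 0.00072 from edgeR). At an adjusted p below 0.05, 1 of the 4 was lower there (10.0% of all genes), and the share of all genes at an unadjusted p was not computed.

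*WRKY11*, a repressor of basal resistance that lies 187445 bases from *VAL2*, had 134.2 and 145.0 CPM in WT, 85.8 and 78.3 in *val1*, and 123.8 and 125.6 in the libraries labelled *val2* (log2FC in *val1* -0.77, adjusted p = 7.6e-05 from edgeR). *WRKY21*, 48141 bases from *VAL1*, had 50.9 and 64.5 CPM in WT, 47.2 and 44.8 in *val1*, and 42.7 and 42.9 in the libraries labelled *val2* (log2FC values -0.33 and -0.43). Of the 4 members within 200 kb of the targeted genes, *WRKY18* and *WRKY25* were called in *val1* and none was called in the libraries labelled *val2*.

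The proteins that act with WRKY factors were examined as lists, and no test of a list was made. Over all tested genes, 9.81% were downregulated and 5.89% upregulated in *val1*, and 2.27% and 0.918% in the libraries labelled *val2*. The share at an unadjusted p below 0.05 was not computed. At an adjusted p below 0.05 alone, 22.1% were lower and 23.6% higher in *val1*, and 10.0% and 8.69% in the libraries labelled *val2*. The pattern receptors and the kinases of the immune MAP kinase cascade act upstream of WRKY22, WRKY29 and WRKY33. Of 10 genes for kinases, 3 were downregulated in *val1* (median log2FC -0.53). With edgeR and with DESeq2 none was called in the libraries labelled *val2* (median 0.016), where 2 were higher and 1 was lower at an unadjusted p below 0.05. At an adjusted p below 0.05, 1 was higher and 1 was lower there. *MPK3* had 1026 and 926.8 CPM in WT, 458.6 and 435.1 in *val1*, and 994.6 and 965.4 in the libraries labelled *val2* (log2FC in *val1* -1.13). The other downregulated kinase genes were *MEKK1* (-1.38) and *MPK11* (-1.33). Of 5 genes for receptors and their partners, 3 were downregulated in *val1* (median -1.15), and 1, *FLS2*, also in the libraries labelled *val2*. *FLS2*, the flagellin receptor gene, had 129.7 and 217.3 CPM in WT, 26.5 and 39.0 in *val1*, and 54.3 and 67.3 in the libraries labelled *val2* (log2FC values -2.40 and -1.51, adjusted p = 8.3e-05 and 0.0045 from edgeR). The others in *val1* were *BIK1* (-1.81) and *BAK1* (-1.15).

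VQ proteins bind WRKY proteins and modulate their activity. Of 8 tested *VQ* genes, 4 were downregulated in *val1* (9.81% of all genes, median of the list -0.82), *VQ29* (-3.87), *VQ10* (-2.38), *JAV1* (-1.30) and *MKS1* (-1.02). With edgeR none was upregulated in *val1*, whereas DESeq2, run without the filter on low counts, called 1 gene of the list upregulated there. *VQ29* was also downregulated in the libraries labelled *val2* (-1.59), a call that DESeq2 did not make, and it rests on few counts, with at most 2.00 CPM in any library. *MKS1*, whose product links MPK4 with WRKY33, had 38.9 and 46.4 CPM in WT, 20.9 and 21.3 in *val1*, and 34.0 and 37.0 in the libraries labelled *val2*.

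Of 18 tested genes described as regulated by WRKY proteins, 4 were downregulated in *val1* (9.81% of all genes, median of the list -0.59). With edgeR and with DESeq2 none was upregulated in *val1*, where 2 were higher at an unadjusted p below 0.05. At an adjusted p below 0.05, 2 of the 18 were higher there (23.6% of all genes). The libraries labelled *val2* had 1 upregulated gene (0.918% of all genes, median of the list 0.070). *EDS1*, a regulator of SA-dependent immunity, had 145.4 and 147.3 CPM in WT, 53.2 and 59.6 in *val1*, and 115.2 and 121.5 in the libraries labelled *val2* (log2FC in *val1* -1.37). The other 3 were *ACS2* (-2.56), *JAZ8* (-2.42) and *ABI5* (-1.65). The upregulated gene was *PR1*, an SA marker, with 13.2 and 10.3 CPM in WT, 18.4 and 21.2 in *val1*, and 22.7 and 30.9 in the libraries labelled *val2* (log2FC values 0.76 and 1.19, adjusted p = 0.007 and 0.003 from edgeR). Of 7 senescence genes, 1 was downregulated for *val1* (9.81% of all genes) and 2 for the libraries labelled *val2* (2.27% of all genes). The gene called in both was *DIN1* (-2.12 and -2.93).

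Genes known to respond within minutes to wounding or touch formed a further list. Of 16 such genes, 10 were downregulated (9.81% of all genes) and 1 was upregulated (5.89% of all genes) in *val1* (median of the list -1.45). In the libraries labelled *val2* none was called with edgeR or DESeq2 (median -0.14), and 1 was higher and 4 were lower at an unadjusted p below 0.05. At an adjusted p below 0.05, 0 of the 16 were higher there (8.69% of all genes) and 3 were lower (10.0% of all genes). Their summed level was 13841 and 14228 CPM in WT, 5706 and 5760 in *val1*, and 11872 and 12392 in the libraries labelled *val2*, and no gene of the list was at 0 in any library. The largest falls in *val1* were those of *CYP94B3* (-2.52), *TCH3* (-2.37), *ZAT6* (-2.36) and *JAZ10* (-2.23), and the gene that rose was *ERF5* (1.47). The part of this response in the values of the WRKY genes was not tested.

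Markers of the apex and of other cell types were examined in the same way. Of 10 tested shoot apex markers, 3 were upregulated in *val1* (5.89% of all genes), the boundary genes *CUC1* (1.14), *CUC2* (1.35) and *CUC3* (1.20), and DESeq2 called 2 of the 3. With edgeR and with DESeq2 none was called in the libraries labelled *val2*, where 3 were higher at an unadjusted p below 0.05. At an adjusted p below 0.05, 1 of the 10 was higher there (8.69% of all genes). The summed level of the apex markers was 233.9 and 223.3 CPM in WT, 319.3 and 302.6 in *val1*, and 289.3 and 266.3 in the libraries labelled *val2*. With edgeR and with DESeq2 none of 3 leaf mesophyll markers was called in either comparison with WT. At an unadjusted p below 0.05, 2 were higher in *val1* and 3 were lower in the libraries labelled *val2*, with sums of 13696 and 12947 CPM in WT, 14376 and 13425 in *val1*, and 10934 and 10065 in the libraries labelled *val2*. At an adjusted p below 0.05, 2 of the 3 were higher in *val1* (23.6% of all genes). All 3 were lower in the libraries labelled *val2* at that threshold (10.0% of all genes). Of 9 tested markers of other cell types, 1, the guard cell gene *KAT1*, was upregulated in *val1* (1.16), against 5.89% of all genes. At an adjusted p below 0.05 alone, 1 of the 9 was higher in *val1* (23.6% of all genes) and 2 were lower (22.1% of all genes). The part of these cells in the values of the WRKY genes was not tested.

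The 36 members that were tested and not called in any comparison included some of the most evenly expressed of the family. *WRKY20* had between 39.5 and 43.9 CPM over the 6 libraries (log2FC in *val1* -0.0085, adjusted p = 0.94 from edgeR). The genes for WRKY proteins fused to immune receptor domains, *WRKY16*, *WRKY19* and *WRKY52*, had log2FC values of -0.48, -0.41 and -0.42 in *val1* (adjusted p = 0.00075, 0.011 and 0.0026 from edgeR), and -0.22, -0.20 and -0.13 in the libraries labelled *val2* (adjusted p = 0.069, 0.21 and 0.29 from edgeR). *WRKY57*, described in drought tolerance, came closest to the threshold among the lower members, with 31.5 and 26.9 CPM in WT, 16.6 and 13.6 in *val1*, and 23.6 and 23.7 in the libraries labelled *val2* (log2FC in *val1* -0.96, adjusted p = 0.00029 from edgeR). *WRKY3* had 11.5 and 13.7 CPM in WT, 22.2 and 25.3 in *val1*, and 14.5 and 12.4 in the libraries labelled *val2* (log2FC in *val1* 0.91). *WRKY14* had 18.0 and 17.0 CPM in WT, 33.0 and 26.9 in *val1*, and 23.6 and 23.9 in the libraries labelled *val2* (log2FC in *val1* 0.77). At the lower end *WRKY9*, *WRKY42*, *WRKY49* and *WRKY8* had at most 1.16 CPM in any library. Against WT their log2FC values had an SE between 0.38 for *WRKY8* in *val1* and 1.02 for *WRKY49* in the libraries labelled *val2*, and none of the 4 was called.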

How the data were processed

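The 6 RNA-seq libraries were used as deposited. Per the labels and the study's methods, the authors trimmed reads with cutadapt, mapped them with STAR to TAIR10 and estimated gene expression with StringTie on Araport11. The deposited estimated counts are whole numbers without normalization, and the deposited TPM values, scaled by the authors for length and library, cover 16383 genes and served for levels between genes and as an alternative. Tool versions are not given in the sources used here. The 77 entries without a gene identifier (0.00191% to 0.00266% of counts) were left out.

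Counts were tested with edgeR 4.0.16 in R 4.3.3 (filterByExpr, TMM factors 0.925 to 1.09, quasi-likelihood fit with a mean per genotype, Benjamini-Hochberg adjustment). The common dispersion was 0.0114. The fit was checked on counts simulated with that dispersion for every gene. Only genes with a mean of at least 50 counts were changed there, by more than the fold-change threshold. The check does not bear on scarcer members or on changes near the threshold. Alternatives were DESeq2 1.42.0, other scalings and filters, limma 3.58.1 on log2(TPM + 1) or log2(TPM + 0.1), a replicate block and leaving out each library. Genotypes were taken from the labels. Values in every library are given for members called in any comparison, the 5 with the highest TPM in WT, *WRKY12*, *WRKY13*, *WRKY44* and *WRKY75*, and members within 200 kb of *VAL1* or *VAL2*. *WRKY3*, *WRKY14*, *WRKY57*, *WRKY60* and *WRKY70* were added after their values were seen. Up to 4 genes of a list were planned to be named, and more are named for the VQ, WRKY-regulated, wound and apex lists. Some of the named genes were not called, among them *SIB1*, *SIB2* and *SARD1*. Members and lists were chosen with earlier results of these data known. Sequences and positions were read from RefSeq TAIR10.1, in which all 59 members were found.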

Additional observations from a re-analysis of the deposited data

How the results depend on the processing

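With 2 libraries in a group, members under about 1 CPM are limited by depth. In *val1* against WT, library size alone gave 6 upregulated and 10 downregulated members, log2(TPM + 1) with limma 4 and 9, with or without the filter, log2(TPM + 0.1) 5 and 10, and no fold-change threshold 7 and 24 (31 in all). Leaving out each library gave 1 to 4 upregulated, 12 to 17 downregulated and 15 to 21 in all. In the libraries labelled *val2* against WT, dropping the fold-change threshold gave 7 and 7 (14 in all), and leaving out each library gave 4 upregulated, 1 to 3 downregulated and 5 to 7 in all. In *val1* against the libraries labelled *val2*, library size alone gave 2 higher and 7 lower, a mean of at least 50 counts 0 higher, where *WRKY27* was not tested, log2(TPM + 1) 0 and 6 (6 in all), with or without the filter, log2(TPM + 0.1) 2 and 7, no fold-change threshold 6 and 22 (28 in all), and leaving out each library 0 to 2, 7 to 14 and 7 to 14 in all. Fewer members (44 or 46) were tested on TPM. The cause of the other differences was not tested. DESeq2 called 1 and 15, 4 and 1, and 1 and 12 members in the 3 comparisons.

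Same-numbered replicates share only a number (correlations of their deviations 0.031 to 0.041). The replicate block gave 1 and 16, 4 and 1, and 1 and 13 members, adding *WRKY28* in the third comparison.

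Directions turned only for log2 fold changes that were not called. Against WT, *WRKY38* in *val1* became 0.19 under library size alone, and in the libraries labelled *val2* *WRKY44* became 0.042 and *WRKY48* 0.061 under library size alone, and *WRKY18* became 0.021 and *WRKY48* 0.046 on TPM. When each library was left out, *WRKY38* of *val1* ranged from -0.16 to 0.14 and *WRKY44* of *val1* from -0.054 to 0.15. With the libraries labelled *val2*, *WRKY12* ranged from -0.043 to 0.58, *WRKY41* from -0.55 to 0.067, *WRKY44* from -0.12 to 0.047, *WRKY48* from -0.040 to 0.013 and *WRKY72* from -0.93 to 0.24. In *val1* against the libraries labelled *val2*, *WRKY12* ranged from -0.071 to 0.55, *WRKY44* from -0.025 to 0.18 and *WRKY75* from -0.0033 to 0.70.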

Other observations

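*SIB2*, the gene for a VQ partner of WRKY33, had 847 counts in *val1* replicate 2 and 0 in each of the other 5 libraries, and did not pass the filter on low counts. Its relative *SIB1* was measured in all 6 libraries, with 52.6 and 55.9 CPM in WT, 74.4 and 79.7 in *val1*, and 89.6 and 87.5 in the libraries labelled *val2* (log2 fold changes 0.51 and 0.71, adjusted p = 0.00061 and 0.00069 from edgeR's quasi-likelihood test), so that it rose without reaching the fold-change threshold. *SARD1*, a regulator of SA synthesis in the list of genes described as regulated by WRKY proteins, had 171.9 and 130.6 CPM in WT, 94.8 and 89.6 in *val1*, and 277.3 and 235.1 in the libraries labelled *val2*. Its log2 fold change was -0.71 for *val1* and 0.76 for the libraries labelled *val2* (adjusted p = 0.0022 and 0.0059 from edgeR's quasi-likelihood test), in the same order of genotypes as *WRKY46* and *WRKY62*.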
